A study of Mus musculus with 6 samples.

Results

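Chat and Slc18a3 mark cholinergic neurons, and Isl1 takes part in specifying several cholinergic cell types. The transcript levels of these 3 genes are described here in 6 RNA sequencing libraries from the mouse midbrain around the oculomotor nucleus. The genes were chosen by name, and they are 3 of the 5538 genes in the deposited table, each with 1 row and a value in every library. Per the labels, the mice were C57BL/6 and carried CreER, a Cre recombinase that needs a drug, under the promoter of the activity-regulated gene Fos, together with a Cre-dependent reporter for eGFP-L10a, a ribosomal protein joined to a green fluorescent protein. All went through sleep deprivation for 6 hr and recovery sleep for 3 hr, with the activating drug 4-OHT given just ahead of one of these phases. The series text names neurons tagged in recovery sleep, and the labels of single libraries carry only IP or Input with a number. Ages and sexes are not given in the sources used here.

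IP stands for RNA recovered with antibodies to eGFP, and Input is read as RNA of the dissected tissue before that step, with 3 libraries of each. Each repeat pooled tissue of 4 to 5 mice, so a replicate is a pool, and the labels do not say whether the IP and Input libraries of a number came from the same pool. Tagging follows the activity of the Fos promoter and not a cell type, so any cell in which Cre acted can contribute to IP. In tissue RNA, fewer cells of a type and less RNA per cell cannot be told apart. Values are TPM, which correct for transcript length, so levels can be compared between genes, and which keep no read depth. For Chat and Slc18a3 that comparison is limited by their shared locus, described below.

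Acetylcholine is made from choline and acetyl-CoA by choline acetyltransferase, the product of Chat. It is then loaded into synaptic vesicles by the vesicular transporter that Slc18a3 encodes, and after release it is split by acetylcholinesterase. Slc18a3 lies within an intron of Chat, an arrangement known as the cholinergic gene locus, and the pair is usually expressed in the same cells. Isl1 encodes a LIM-homeodomain transcription factor that takes part in specifying motor neurons and several other cholinergic cell types. In the midbrain, cholinergic neurons include the motor neurons of the oculomotor nucleus and the preganglionic neurons of the Edinger-Westphal nucleus.

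In the GENCODE M21 annotation of the mouse build GRCm38 (mm10), Chat spans chromosome 14, 32408203 to 32465989, on the minus strand, and its longest coding transcript has 16 exons and 2858 bases. Slc18a3 is a single exon of 2413 bases at 32462438 to 32464850 on the same strand. It falls wholly inside the first intron of that Chat transcript, 32460914 to 32465806, and 0 annotated Chat exons overlap it. Its start lies 1139 bases downstream of the start of Chat. Reads from unspliced Chat RNA would therefore match Slc18a3, and strand cannot separate the pair. Isl1 lies on chromosome 13, 116298281 to 116309689, on the minus strand, with 6 exons and 2516 bases in its longest coding transcript.

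The start regions of the genes are shown because Chat and Slc18a3 share a locus but begin at separate sites, and Isl1 is on another chromosome. The sequences are from RefSeq on GRCm38.p6, 170 bases each, from 250 to 81 bases upstream of the RefSeq start, a stretch that holds no annotated exon of the 3 genes. Capitals mark matches on either strand to a CCAAT box (CCAAT), an E-box (CACGTG) or a LIM-homeodomain core (TAATNG), and none of these matches overlaps another.
Chat (chr14:32465990-32466159, minus strand): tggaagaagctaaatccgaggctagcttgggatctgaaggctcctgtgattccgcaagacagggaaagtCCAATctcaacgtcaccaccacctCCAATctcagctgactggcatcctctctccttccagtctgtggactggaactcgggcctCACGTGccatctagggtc
Slc18a3 (chr14:32464931-32465100, minus strand): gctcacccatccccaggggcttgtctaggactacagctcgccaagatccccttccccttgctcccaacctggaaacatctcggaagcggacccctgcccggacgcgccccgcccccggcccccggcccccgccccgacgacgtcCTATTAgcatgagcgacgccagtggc
Isl1 (chr13:116309769-116309938, minus strand): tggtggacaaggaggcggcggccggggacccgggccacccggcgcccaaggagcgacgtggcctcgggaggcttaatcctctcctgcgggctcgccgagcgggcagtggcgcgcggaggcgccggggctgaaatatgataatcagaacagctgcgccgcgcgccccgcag
The Chat window held a pair of CCAAT letters, 181 and 157 bases upstream, and an E-box 98 bases upstream. The Slc18a3 window, which lies in the first Chat intron, held 1 match to TAATNG on the opposite strand, 106 bases upstream. The Isl1 window held none of these letters, and a further motif searched, the CRE core TGACGTC, was in none of the 3 windows. Over the same window of 27025 genes, CCAAT was found in 23.6%, CACGTG in 3.39%, TAATNG in 14.0% and TGACGTC in 1.04%. The Slc18a3 and Isl1 windows were rich in G and C (69.4% and 72.9%), above 91.5% and 94.9% of all windows, while Chat had 54.7% against a median of 51.2%. A match describes the letters only.

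The libraries differed in ways that touch every value below. The median gene stood between 27.7 and 67.2 TPM and was lowest in IP 1 and Input 3. The 100 most abundant genes took 56.2% and 65.5% of the listed TPM in IP 1 and Input 3, and 24.8% to 42.6% in the other 4 libraries. Across genes on the log2 scale, IP 2 with IP 3 and Input 1 with Input 2 correlated at r = 0.962 and 0.973, whereas Input 3 correlated at 0.722 and 0.736 with the other Inputs. The levels of the 3 genes are therefore given in TPM and also relative to the median gene of each library. Results are repeated without IP 1 and Input 3, a choice made with earlier results of these data known.

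All 3 genes had a higher mean level in IP than in Input: 2.12 times for Chat, 1.77 times for Slc18a3 and 2.35 times for Isl1. Chat and Isl1 were higher in every IP library than in every Input library, and Slc18a3 was not, because Input 3 had more of it than IP 1 or IP 3. None of the 3 passed the test across all genes. By TPM, Slc18a3 was the most abundant of the genes in each of the 6 libraries, Chat came next and Isl1 was lowest. In the mean over IP, Slc18a3 (170 ± 42.1 TPM) and Chat (78.4 ± 36.0 TPM) did not overlap between libraries, and neither did Chat and Isl1 (32.7 ± 4.58 TPM; SD, n = 3 each). In Input, Chat (36.9 ± 2.79 TPM) lay above Isl1 (13.9 ± 2.90 TPM) without overlap, as Slc18a3 lay above Chat, but Slc18a3 spread from 43.1 to 176 TPM, and its mean of 96.3 ± 70.6 TPM stood within 1 SD of that of Chat.

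**Figure D1:**
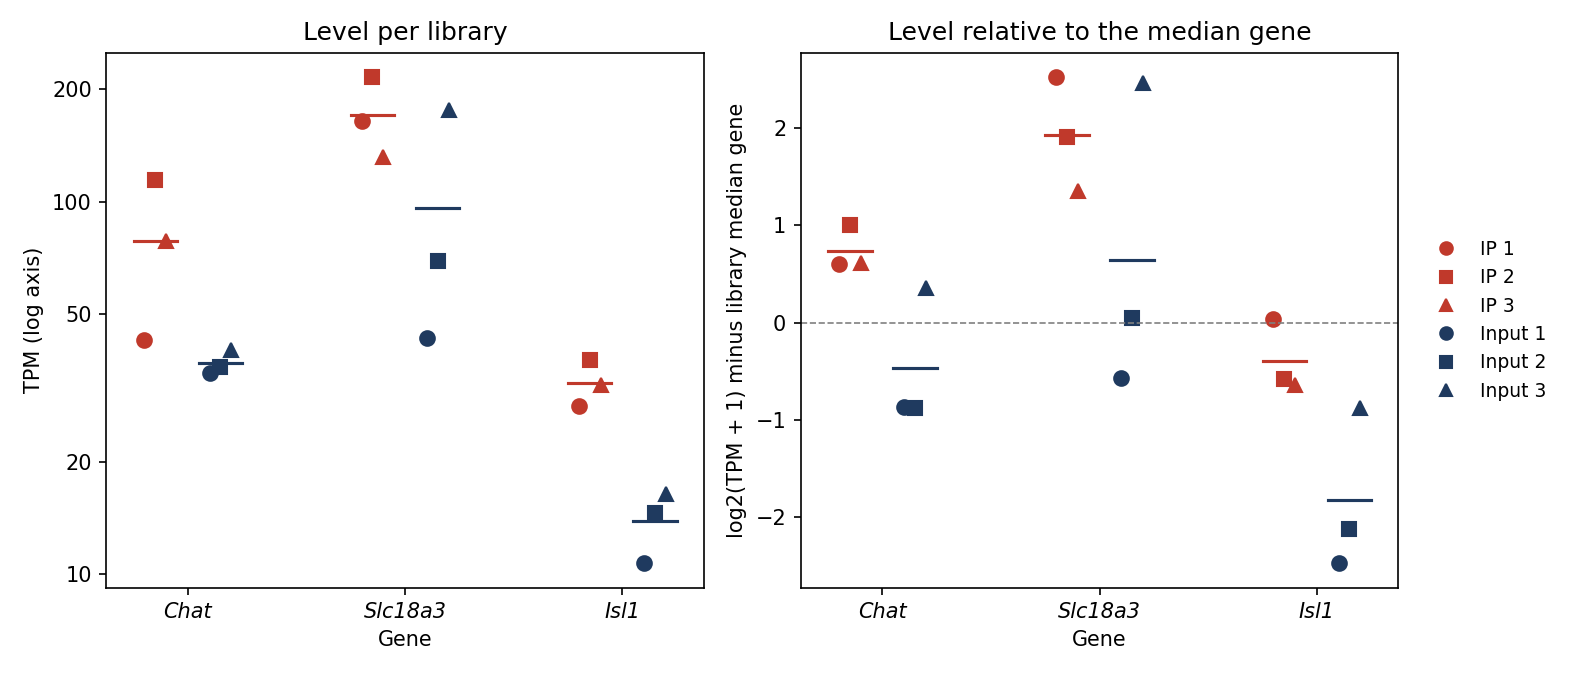
Levels of Chat, Slc18a3 and Isl1 in each library, as TPM on a log axis (left) and as log2(TPM + 1) minus the median gene of the same library (right), with IP in red, Input in dark blue, symbols for replicates 1, 2 and 3 and bars for group means. For Chat and Isl1 each IP point lies above each Input point in both panels, whereas the Input 3 point of Slc18a3, at 176 TPM, lies among the IP points.

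In the order of replicates 1, 2 and 3, used throughout, the Chat level was 42.5, 114 and 78.3 TPM in IP and 34.7, 36.1 and 40.1 TPM in Input. The Input libraries were close to each other and the IP libraries were not: IP 2 was the highest, and IP 1 was 1.06 times the level of Input 3. As a multiple of the median gene, Chat stood at 1.53, 2.02 and 1.54 in IP and at 0.540, 0.537 and 1.29 in Input. On this scale the IP libraries were closer to each other, and Input 3 was nearer to them than to the other Inputs. In terms of rank, Chat was above 63.3%, 75.1% and 66.0% of the listed genes in IP and above 25.0%, 24.3% and 59.8% in Input. On the log2(TPM + 1) scale IP exceeded Input by 0.96 (SE 0.55), and limma's adjusted p over all genes was 0.999. Against the median gene the difference was 1.18, and the fit on libraries centred on their median gene gave it an SE of 0.38 and a limma adjusted p of 0.649 (0.0145 before adjustment).

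Slc18a3 had 164, 215 and 132 TPM in the IP libraries and 43.1, 69.3 and 176 TPM in the Inputs. Inputs 1 and 2 were below all IP libraries and Input 3 was above all but IP 2, so the groups overlapped. Relative to the median gene it stood at 5.93, 3.81 and 2.59 times in IP and at 0.670, 1.03 and 5.68 times in Input. The highest multiples were those of IP 1 and Input 3, the libraries with the lowest median gene. The unscaled log2 difference was 1.04 (SE 0.59; limma adjusted p = 0.999). Against the median gene it was 1.26, with an SE of 0.76 and a limma adjusted p of 0.702 in the fit on centred libraries. The latter value rested on single Inputs: it was 0.66 without Input 1 and 2.20 without Input 3, and the limma fits of the unscaled values without those libraries called neither.

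Isl1 had 28.4, 37.5 and 32.2 TPM in IP and 10.7, 14.6 and 16.4 TPM in Input. The lowest IP library had 1.73 times the level of the highest Input library, a wider gap than that of Chat. Isl1 was also the closest of the 3 to the floor of the table, which lists only genes at 7 TPM or more in every library. It stood at 1.03, 0.663 and 0.633 times the median gene in IP and at 0.166, 0.217 and 0.528 times in Input. In Inputs 1 and 2 it was thus among the least abundant listed genes, above 1.44% and 3.00% of them, against 23.6% in Input 3 and 30.1% to 50.7% in IP. The unscaled log2 difference was 1.19 (SE 0.44), and its limma p was 0.0171 before and 0.999 after adjustment. Against the median gene it was 1.41, and in the fit on centred libraries its SE was 0.44 and its limma p 0.0133 before and 0.649 after adjustment.

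Of all 5538 genes, 1.7% had every IP library above every Input library in TPM and 6.93% had so relative to the median gene, and Chat and Isl1 were among both. The relative log2 differences of Chat, Slc18a3 and Isl1 were larger than those of 97.2%, 97.7% and 98.4% of genes. The log2 difference of the median gene itself was -0.23. Limma called 0% of all genes higher in IP and 0 lower after adjustment (threshold 0.05), and before adjustment 53 genes were higher and 53 lower at that threshold. For a single gene the smallest two-sided p of an exact permutation test with 3 libraries a group is 0.1, so that test could not reach the threshold.

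Without IP 1 and Input 3, limma called all 3 genes higher in IP, on 2 libraries a group. These libraries were left out with earlier results of these data known, so the calls describe that choice and are no independent support. Among the Inputs, Input 3 had the highest TPM of each of the 3 genes. The unscaled log2 differences were 1.39 (SE 0.23) for Chat, 1.61 (SE 0.30) for Slc18a3 and 1.40 (SE 0.27) for Isl1, with limma adjusted p of 0.0135, 0.0181 and 0.0182. In that fit 2.18% of all genes were called higher (121 genes) and 936 genes lower, and the median gene had a log2 difference of -0.33. Against the median gene the differences were 1.72, 1.93 and 1.73. With these 4 libraries centred on their median gene the limma adjusted p were 0.00350, 0.00563 and 0.00625, and 3.38% of genes were called higher. Leaving out Input 3 alone or IP 1 alone gave no call for any of the 3.

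**Figure D2:**
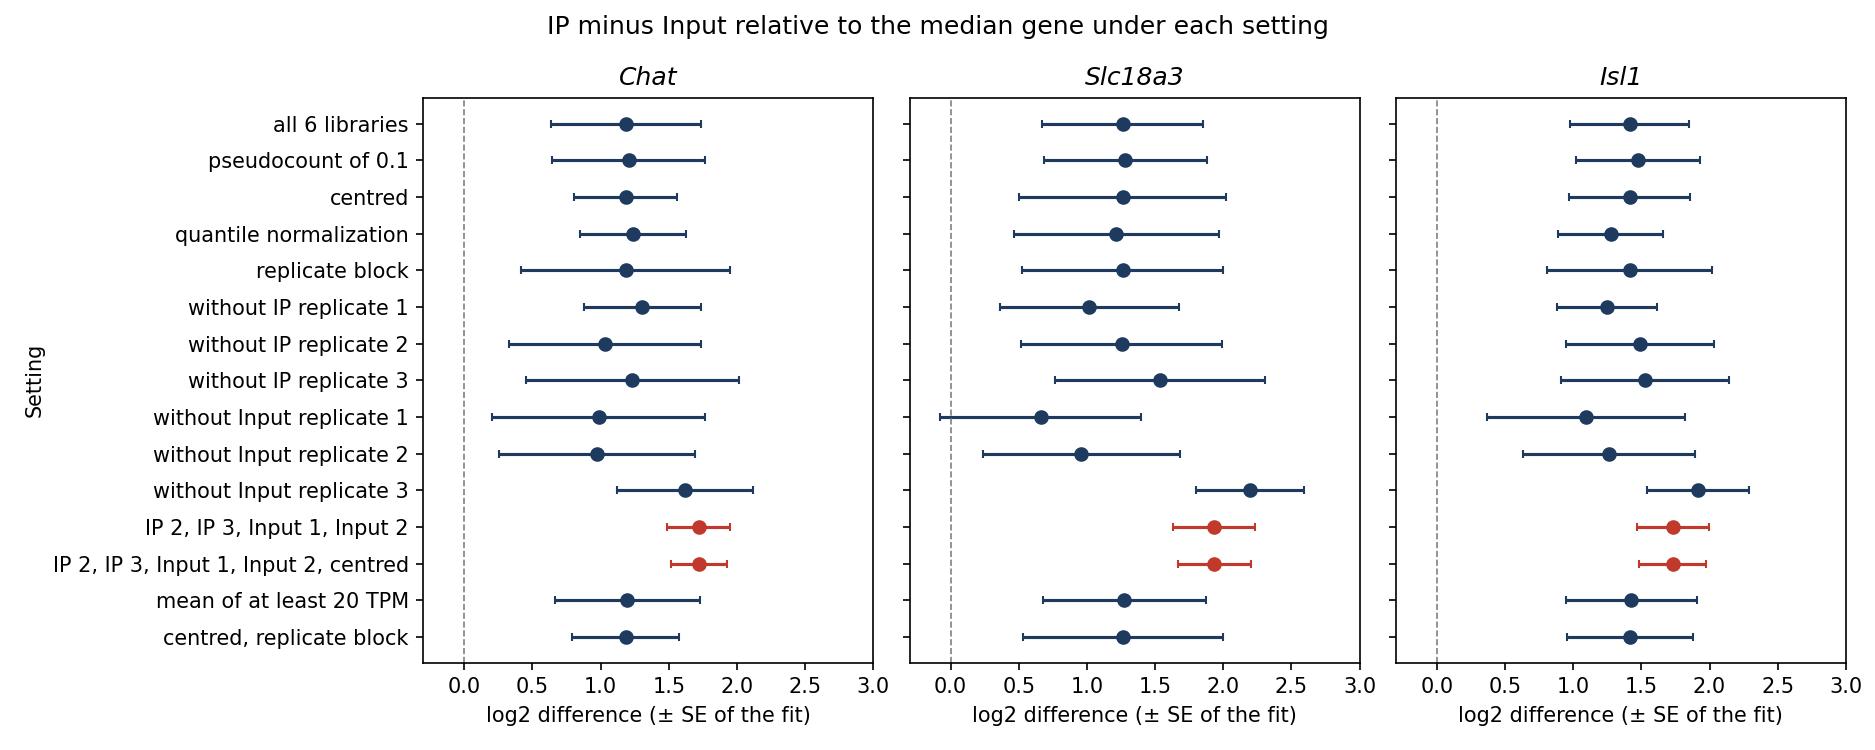
Log2 difference of IP minus Input relative to the median gene (horizontal axis, ± SE of the fit, which tests the unscaled difference unless libraries were centred) for Chat, Slc18a3 and Isl1 under each setting, with red for a limma adjusted p under 0.05 and dark blue otherwise. All points lie above 0, and the only red points are those of the 2 settings that use IP 2, IP 3, Input 1 and Input 2.

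The ratio of Slc18a3 to Chat needs no scaling between libraries, since both genes are read in the same library. It was 3.87, 1.88 and 1.68 in the IP libraries and 1.24, 1.92 and 4.40 in the Inputs, so Slc18a3 exceeded Chat in all 6. IP 1 and Input 3 had the highest ratios, 1 in each group, and the other 4 libraries lay between 1.24 and 1.92. On average the ratio was 2.48 ± 1.21 over the IP libraries and 2.52 ± 1.66 over the Inputs (SD, 3 libraries each). The difference in mean log2 ratio was 0.07 (exact two-sided permutation test, p = 1, where the smallest possible was 0.1), and its sign turned when single libraries were left out. The sum of both genes was 207, 330 and 210 TPM in IP and 77.8, 105 and 216 TPM in Input, with Slc18a3 making up 55.4% to 81.5% of it.

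The ratio of Isl1 to Chat varied less. It was 0.668, 0.328 and 0.412 in IP and 0.308, 0.404 and 0.409 in Input, with Input 3 next to the other libraries and IP 1 above them. Slc18a3 to Isl1 was 5.78, 5.75 and 4.09 in IP and 4.02, 4.75 and 10.8 in Input, where Input 3 stood far above the rest. The log2 differences between groups were 0.27 for Isl1 to Chat and -0.20 for Slc18a3 to Isl1 (exact permutation p = 0.4 and 0.9). Over the 3 ratios the adjusted p was 1 for each. Input 3 thus differed from the other Inputs in its Slc18a3 more than in its Chat or Isl1.

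Since Slc18a3 has a single exon and sits in a Chat intron, RNA classes that could move with unspliced RNA or with single-exon genes are set beside the ratio. The 51 other single-exon coding genes of the table had a median log2 level relative to the median gene of -0.07, -0.28 and -0.37 in IP and -0.28, -0.22 and -0.05 in Input. They were highest in IP 1 and Input 3, as the ratio was, over a narrower range than the log2 ratio, which ran from 0.31 to 2.14. The 5 measured nuclear-retained noncoding RNAs (Malat1, Neat1, Meg3, Rian and Snhg11) summed to 116, 1823 and 909 TPM in IP and 1169, 1442 and 447 TPM in Input. They were lowest in IP 1 and Input 3, the libraries with the highest ratio. The part of either class in the ratio was not tested.

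**Figure D3:**
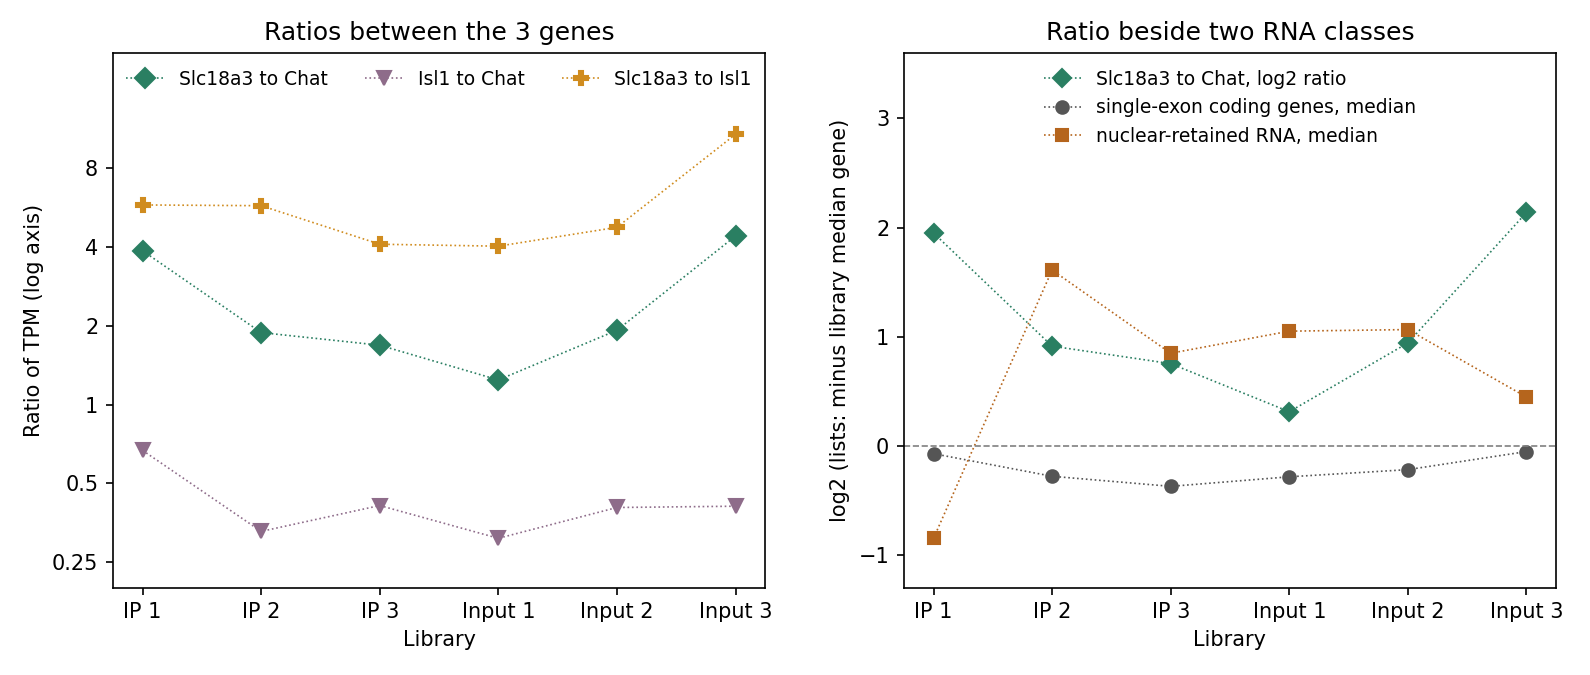
Ratios of TPM between the 3 genes in each library on a log axis (left), and the log2 ratio of Slc18a3 to Chat beside the median log2 level, relative to the library's median gene, of 51 single-exon coding genes and 5 nuclear-retained RNAs (right). The Slc18a3 to Chat ratio is highest in IP 1 (3.87) and Input 3 (4.40), where the nuclear-retained RNAs are lowest.

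Of 12 genes listed for acetylcholine synthesis, transport and breakdown, 6 had values, Chat and Slc18a3 among them, and the others were not analysed here. Relative to the median gene 5 of the 6 were higher in IP, where 50% of all genes were, with a median log2 difference of 0.82 against 0 for all genes by construction. The test called 0 of the 6. The list was chosen with earlier results of these data known, so its share is a description. Slc5a7, the choline transporter that supplies the synthetic enzyme, had 16.5, 85.4 and 50.4 TPM in IP and 20.6, 24.3 and 41.7 TPM in Input. In TPM its IP 1 level was below every Input library. Relative to the median gene its log2 difference was 0.80, and the groups overlapped on both scales. Acly, which makes cytosolic acetyl-CoA and is expressed in many cell types, had 269, 624 and 463 TPM in IP and 294, 304 and 247 TPM in Input. Relative to the median gene Acly was higher in every IP library, as 6.93% of all genes were (log2 difference 0.83). Ache, the enzyme that breaks acetylcholine down, had 150, 431 and 303 TPM in IP and 350, 357 and 91.0 TPM in Input, with groups that overlapped and a log2 difference of 0.49. Chkb, a choline kinase that diverts choline to phospholipid, had a log2 difference of -0.31.

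Of 17 genes listed for acetylcholine receptors and their accessory proteins only Lynx1, which encodes a membrane-anchored modulator of nicotinic receptors, had a value. It had 61.7, 93.2 and 89.8 TPM in IP and 85.4, 67.7 and 24.7 TPM in Input, a log2 difference of 0.83 relative to the median gene. The groups overlapped in TPM. Relative to the median gene every IP library was above every Input library, as for 6.93% of all genes. Of 17 LIM-homeodomain and motor neuron transcription factors and cofactors, 4 had values: Isl1, Ldb1, Lmo1 and Lmo4. Phox2a, a factor that oculomotor motor neurons need to form, was not analysed here, so that identity could not be checked through it. Ldb1, the cofactor through which LIM-homeodomain proteins assemble, had 29.6, 66.1 and 43.7 TPM in IP and 58.2, 69.3 and 9.24 TPM in Input. Its log2 difference was 0.59, and the groups overlapped. Lmo1 and Lmo4 encode LIM-only proteins that compete for that cofactor. They had log2 differences of 0.51 and -0.49, and Lmo4 was lower in TPM in every IP library but not relative to the median gene.

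Of 11 further genes of motor neurons, 4 had values. Relative to the median gene all 4 had a log2 difference above 0 (median 1.42), where 50% of all genes did. This list was chosen with earlier results of these data known, so the share is a description. The level of Prph, an intermediate filament of neurons with peripheral axons, was 161, 191 and 144 TPM in IP against 77.1, 128 and 51.4 TPM in Input. Every IP library was above every Input library, as for 1.7% of all genes in TPM, and the log2 difference was 1.26. Calca and Calcb, which encode forms of the peptide CGRP found in many motor neurons, had log2 differences of 1.84 and 1.59, and they are similar in sequence, so the split of reads between them is uncertain. Chodl, a membrane protein known from fast motor neurons, overlapped between the groups, at 13.1, 16.0 and 15.6 TPM in IP and 11.7, 17.5 and 11.0 TPM in Input. Its log2 difference was 0.40. None of these genes was called by limma across all genes (adjusted p = 0.999 for each).

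**Figure D4:**
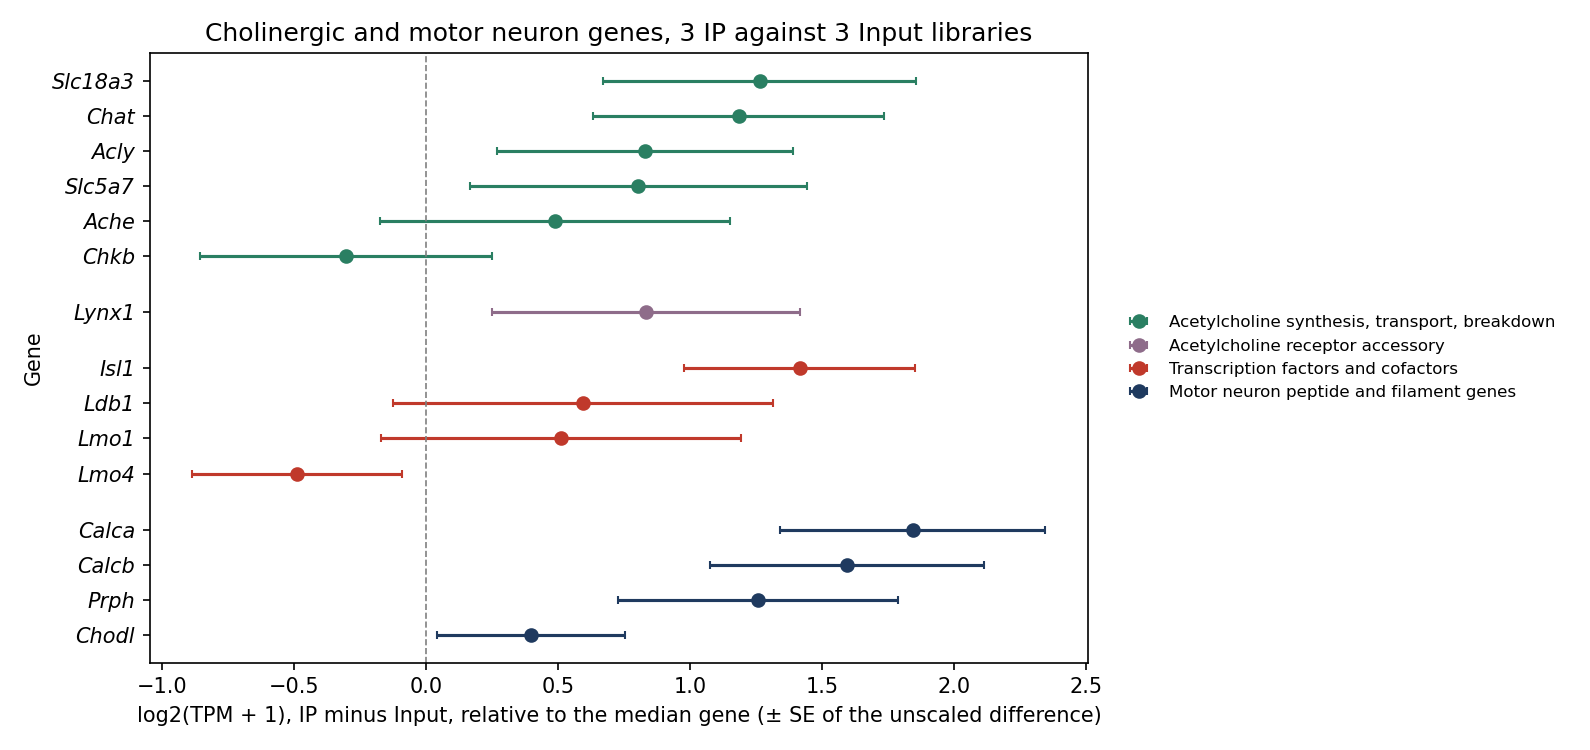
Log2 difference of IP minus Input relative to the median gene (horizontal axis, with the SE of the unscaled difference, 3 libraries a group) for the 15 measured genes of the lists of acetylcholine metabolism, receptor accessory proteins, transcription factors and motor neuron genes. Chkb and Lmo4 lie below 0 and the other 13 above it, where 50% of all genes lie.

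Markers of other cell types moved between libraries too, and their part in the levels of Chat, Slc18a3 and Isl1 was not tested. The 5 measured dopaminergic genes summed to 88.0 to 532 TPM in IP and 148 to 1588 TPM in Input, and 4 serotonergic genes to 315 to 1169 and 162 to 3320 TPM. The 3 measured genes of GABA and glutamate neurons summed to 38.0 to 370 TPM in IP and 194 to 378 TPM in Input. The 4 astrocyte genes summed to 100 to 286 TPM in IP and 124 to 600 TPM in Input, and the 5 oligodendrocyte genes to 357 to 4390 and 528 to 4770 TPM. In IP 1 and Input 3 each of these 5 sums was lower than in any other library. In TPM the same held for the 6 measured genes of acetylcholine metabolism. They summed to 673 TPM in IP 1, 627 TPM in Input 3 and 819 to 1510 TPM in the other libraries. It also held for the 4 transcription factors and cofactors, at 110 and 54.4 TPM against 130 to 167 TPM. It did not hold for the motor neuron genes Calca, Calcb, Prph and Chodl. They summed to 379, 411 and 336 TPM in IP and 146, 223 and 136 TPM in Input. Nor did it hold for the microglial gene Ctss, at 26.1 TPM in Input 3 and 15.3 TPM in Input 1. The sum of only Chat and Slc18a3 was higher in Input 3 than in the other Inputs, and in IP 1 it was 207 TPM against 210 TPM in IP 3.

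**Figure D5:**
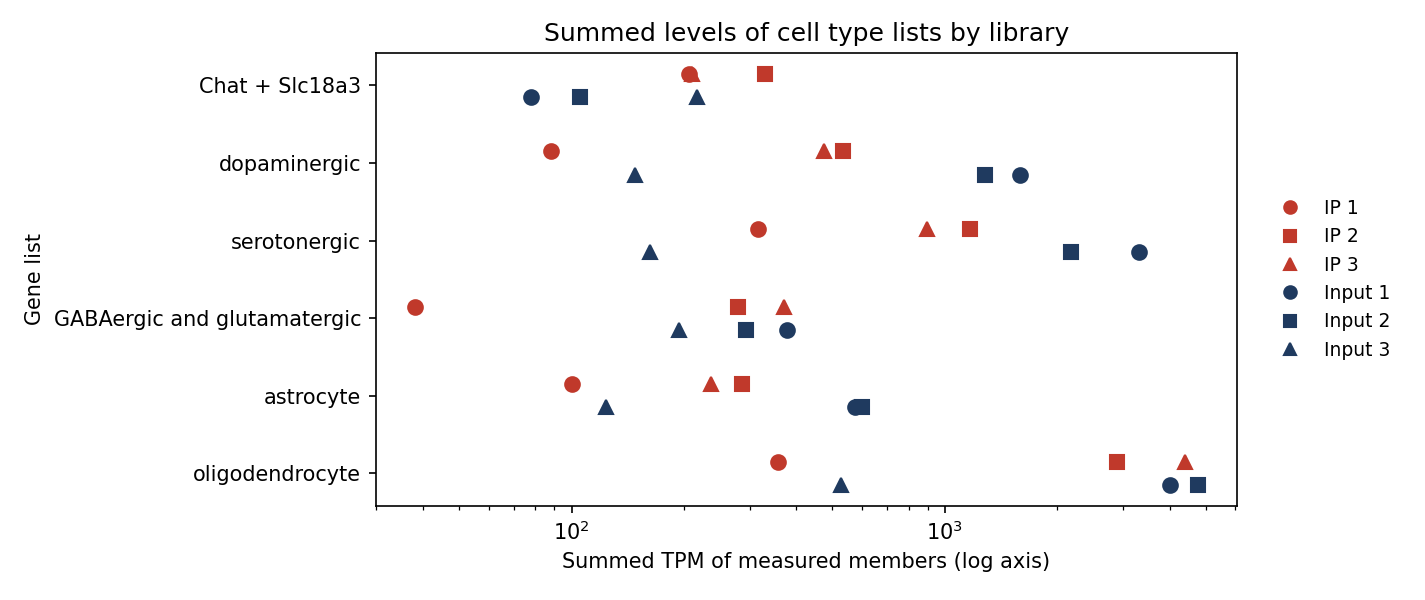
Summed TPM (log axis) of Chat and Slc18a3 and of the measured genes of 5 cell type lists in each library, with IP in red, Input in dark blue and symbols for replicates 1, 2 and 3. In the 5 lists IP 1 and Input 3 have the lowest sums, while the Chat and Slc18a3 sum of Input 3 (216 TPM) lies among those of IP.

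Of the microglial list only Ctss had a value, at 15.7 TPM or less in IP and 15.3 to 35.6 TPM in Input. Of the endothelial and blood list, Ly6c1, a surface protein of brain endothelium, had 50.3, 278 and 67.3 TPM in IP and 34.9, 35.4 and 21.9 TPM in Input, while the hemoglobin genes Hba-a1 and Hbb-bs had log2 differences of -0.63 each. Defining markers such as Aqp4, P2ry12, Cldn5 and Slc6a3 were not analysed here. Because the table lists values of 7 TPM or more, none of its genes is at 0.

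The genes whose patterns over the 6 libraries were most like those of the 3 genes were sought among 5247 named genes, by the root mean square distance between log2 profiles relative to the median gene, each with its own mean removed. With 6 libraries many genes lie close to any profile, and r is a description. For Isl1 the closest was Spp1, which encodes osteopontin, known as a marker of large motor neurons, at a distance of 0.07 log2 units (r = 0.998). Spp1 had 686, 861 and 696 TPM in IP and 241, 358 and 400 TPM in Input. Adamtsl5, Cerk, Hebp2 and Calcb followed, at 0.11 to 0.18. For Chat the closest were Inpp5j at 0.15 (r = 0.992), Atg7, Fgf11, Nefl, the light neurofilament chain, and Ube3b at 0.21. For Slc18a3 they were Gnpat at 0.30 (r = 0.968), Unc119b, Hif1an, Pou2f1 and, at 0.34, Pvalb, a calcium-binding protein of many fast-firing neurons.

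The 3 genes were not each other's closest. By distance Isl1 was number 35 for Chat (0.34 log2 units, r = 0.928) and number 32 for Slc18a3 (0.48, r = 0.930). Slc18a3 was number 796 for Chat (0.65, r = 0.869), although the 2 share a locus, and Chat was number 104 for Slc18a3. Pvalb, like Slc18a3, was high in Input 3, with 391, 359 and 387 TPM in IP and 125, 249 and 427 TPM in Input.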

How the data were processed

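TPM for 5538 genes in 6 libraries (3 IP, 3 Input) were deposited by the authors, and the file's header names the unit. RSEM, DESeq and mm10 are named, without roles or versions, per the submitters' processing notes. The aligner and the annotation are not given in the sources used here. TPM keep no depth, so no counting error or floor can be given. The listed TPM do not add up to whole libraries, since only genes at 7 TPM or more in every library are listed. Of the gene IDs, 5534 were in GENCODE M21.

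Values were taken as log2(TPM + 1). A filter on a mean of at least 1 TPM removed 0 genes. The comparison of IP with Input used limma 3.58.1 in R 4.3.3, with group as the only term, a variance trend and Benjamini-Hochberg adjustment over all genes, and the script was tested on simulated data. Differences given relative to the median gene subtract that gene's difference, while SE and p belong to the unscaled difference unless libraries were centred. Ratios were tested by exact permutation. The 12 gene lists (117 entries, 45 measured) and the named genes follow from the 3 genes: every measured gene of the cholinergic and motor neuron lists, and the 5 nearest profiles of each gene. Genes and lists were chosen with earlier results of these data known. Replicates are pools that the labels number, and p-values measure the spread between libraries.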

Additional observations from a re-analysis of the deposited data

How the results depend on the processing

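Relative to the median gene, 4 of the 15 alternatives (centring, the block, both together and no filter) leave the differences of Chat, Slc18a3 and Isl1 as they are by construction. The others gave 10 distinct values per gene, all above 0. Limma called the genes only in the 2 fits on IP 2, IP 3, Input 1 and Input 2, where the differences were 1.72, 1.93 and 1.73, with or without centring, and the adjusted p of either fit at most 0.0182; the cause was not tested. With single libraries left out the differences ranged from 0.97 to 1.62 for Chat, 0.66 to 2.20 for Slc18a3 and 1.09 to 1.91 for Isl1. Genes called higher and lower numbered 121 and 936 in the fit on 4 libraries, 187 and 160 with those centred, and 0 to 19 and 0 to 2 with single libraries left out (19 and 2 without Input 3, 1 and 1 without Input 1). The Slc18a3 to Chat log2 ratio difference was -0.022 under quantile normalization and ranged from -0.33 to 0.58 with single libraries left out, with a sign below 0 without IP 1 (-0.30), Input 1 (-0.33) or Input 2 (-0.020).

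A fit that took the replicate number as a block called 13 genes higher and 0 lower, and Chat, Slc18a3 and Isl1 were not called. The block leaves their differences (1.18, 1.26 and 1.41) and that of the ratio (0.07) as they are by construction. Deviations from the group means correlated at -0.10, 0.25 and -0.17 for numbers 1, 2 and 3, and at -0.25 to 0.19 between unlike numbers. With 3 libraries a group these values cannot decide whether the numbers pair the libraries. The libraries were treated as unpaired because the labels do not say. A block on centred libraries was added after the data were seen and called 0 genes. Read depth is unknown and its limit could not be assessed.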
